A study of Mus musculus with 12 samples.

Results

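Genes of macrophage identity and the complement C1q chains were followed in bone-marrow-derived macrophages that lacked or carried Atf3. The 6 members were chosen as a list of transcript IDs: C1qa (ENSMUST00000046285), C1qb (ENSMUST00000046384), Cd14 (ENSMUST00000061829), Cd68 (ENSMUST00000018918), Mertk (ENSMUST00000014505) and Csf1r (ENSMUST00000025523). All 6 were present among the 74007 probe sets of the deposited table, and all 6 were among the 39620 tested. The table holds IDs only, so the gene names are those given with the list.

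The samples were 4 groups of 3 cultures, each from its own female mouse on a C57BL/6J background, 8 to 12 weeks old and on normal chow. The groups were Atf3-/- macrophages with oxLDL, wild-type (WT) macrophages with oxLDL, Atf3-/- macrophages without stimulus and WT macrophages without stimulus. All cultures were grown from femoral marrow with recombinant human M-CSF at 50 ng/mL, and oxLDL, human LDL oxidised with copper sulphate, was added on day 7 at 25 ug/mL for 24 h. The Atf3-/- mice lack Atf3, a stress-induced transcription factor of the ATF/CREB family, and the labels name no cell type to which the deletion is restricted. The series concerns how foam cell formation alters transcription and how loss of Atf3 modifies it.

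Csf1r is the receptor for M-CSF, the growth factor that drives marrow precursors to become macrophages and keeps them alive. Macrophages are a main source of C1q, the recognition subunit of complement, which binds immune complexes and dying cells. C1q is assembled from A, B and C chains encoded by C1qa, C1qb and C1qc. CD14 presents lipopolysaccharide to Toll-like receptor signalling, Mertk is a receptor tyrosine kinase for the uptake of apoptotic cells, and CD68 is a heavily glycosylated protein of lysosomes.

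Levels are log2 expression values of 1 probe set per transcript. Array medians lay between 8.42 and 8.57. The spread of replicates differed with genotype: over all tested probe sets the SD within groups was 0.077 in Atf3-/- cultures and 0.273 in WT cultures. WT oxLDL replicate 3 had the narrowest distribution of values (SD 1.17, against 1.26 to 1.37 on the other 11 arrays), and its 95th percentile was 10.83 against 10.99 to 11.22. All 6 members exceeded the array median on all 12 arrays. The lowest percentile of an array was 99.4 for Cd68, 98.6 for Csf1r, 96.2 for C1qb, 80.7 for Mertk, 79.55 for C1qa and 76.6 for Cd14. Markers of other cell types were not analysed here. In these bulk samples fewer cells with a transcript and less RNA per cell cannot be told apart, and genotype and any processing day common to one genotype cannot be told apart.

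The C1q chains and Cd14 were higher in Atf3-/- than in WT macrophages in both states, and they fell with oxLDL in WT. C1qa was 5.24-fold higher in Atf3-/- macrophages with oxLDL and 2.38-fold higher without it. C1qb was 2.71-fold and 1.74-fold higher, and Cd14 was 3.56-fold and 1.90-fold higher. Cd68 was 1.34-fold higher with oxLDL and 1.36-fold higher without it, and Mertk was 1.54-fold higher with oxLDL. Mertk without oxLDL and Csf1r in either state did not pass the test of genotype.

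**Figure D1:**
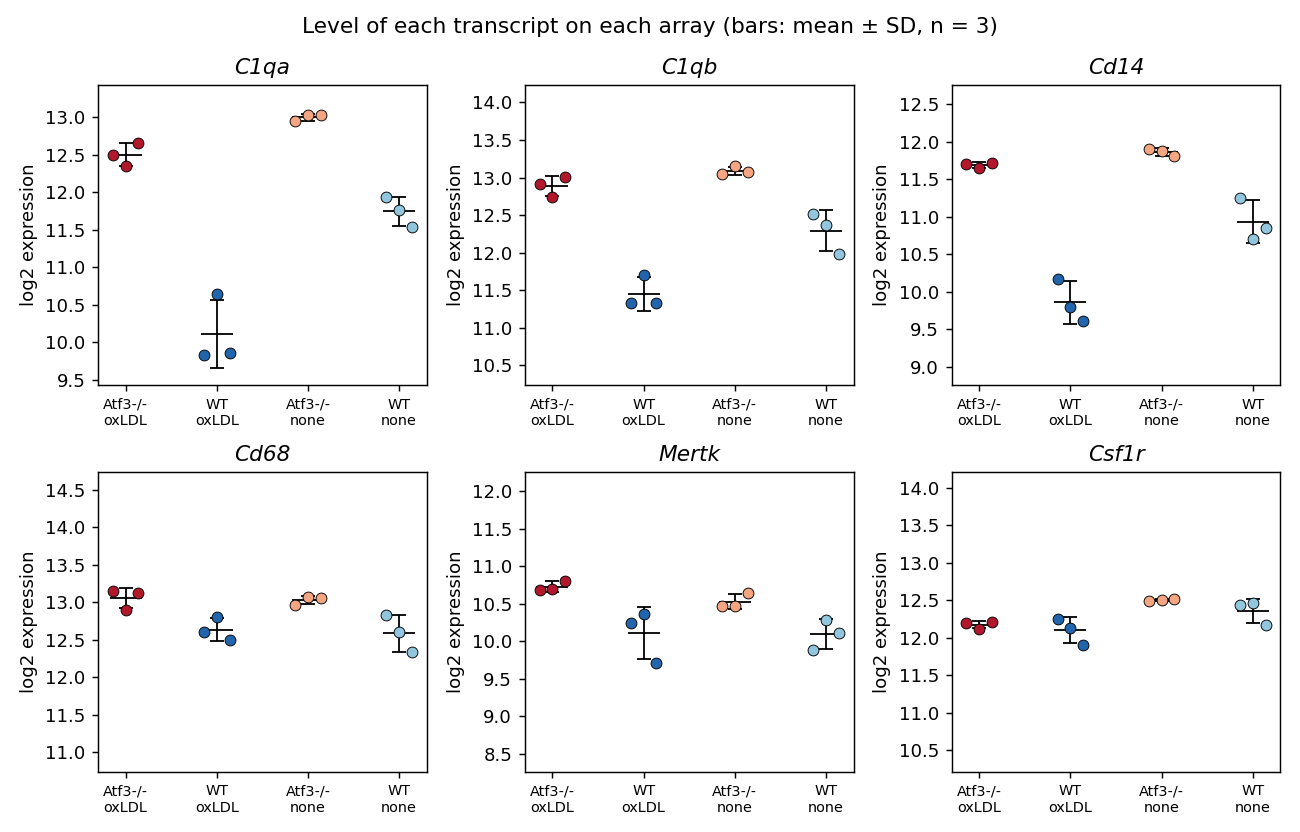
Log2 expression (vertical axes, of the same height in each panel) of the 6 transcripts on each of the 12 arrays, 1 point per array, with the mean and SD of the 3 arrays of each group as bars. C1qa, C1qb and Cd14 have all 6 Atf3-/- arrays above all 6 WT arrays and the WT oxLDL arrays at the bottom, while Csf1r varies within 0.61 log2 units in all.

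C1qa, which encodes the A chain, stood at 12.50, 12.35 and 12.65 on the Atf3-/- oxLDL arrays, against 9.84, 10.64 and 9.86 on the WT oxLDL arrays. Without oxLDL it stood at 12.95, 13.02 and 13.02 on the Atf3-/- arrays, against 11.93, 11.77 and 11.54 on the WT arrays. The groups followed the order Atf3-/- unstimulated, Atf3-/- with oxLDL, WT unstimulated and WT with oxLDL from high to low, and no neighbouring groups in this order overlapped. The share of all tested probe sets with such an order was not counted. The oxLDL and unstimulated groups did not overlap, in either direction, for 40.2% of tested probe sets in Atf3-/- and for 15.0% in WT cultures. The difference between genotypes was 2.39 with oxLDL (SE 0.19, limma adjusted p = 2.11e-05) and 1.25 without it (SE 0.19, limma adjusted p = 0.00154).

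C1qb, which encodes the B chain, stood at 12.91, 12.74 and 13.00 on the Atf3-/- oxLDL arrays, against 11.32, 11.71 and 11.32 on the WT oxLDL arrays. Without oxLDL its levels were 13.05, 13.15 and 13.07 in Atf3-/- macrophages, against 12.51, 12.37 and 11.99 in WT macrophages. The order of the 4 groups was that of C1qa, again with no overlap between neighbours. The genotypes differed by 1.44 with oxLDL (SE 0.14, limma adjusted p = 6.46e-05) and by 0.80 without it (SE 0.14, limma adjusted p = 0.00372).

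Cd14, the lipopolysaccharide co-receptor, stood at 11.70, 11.65 and 11.72 on the Atf3-/- oxLDL arrays, against 10.17, 9.79 and 9.60 on the WT oxLDL arrays. Without oxLDL it stood at 11.91, 11.87 and 11.80 on the Atf3-/- arrays, against 11.25, 10.70 and 10.85 on the WT arrays. It shared the order of groups of the C1q chains, without overlap between neighbours. The genotypes differed by 1.83 with oxLDL (SE 0.16, limma adjusted p = 3.26e-05) and by 0.93 without it (SE 0.16, limma adjusted p = 0.00299).

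These 3 transcripts passed the genotype tests under each of the 25 alternatives in both states. Across those alternatives the genotype difference with oxLDL ran from 2.25 to 2.71 for C1qa, from 1.33 to 1.61 for C1qb and from 1.53 to 1.99 for Cd14. Unstimulated WT replicate 1 had the highest C1qa, C1qb and Cd14 values among the unstimulated WT arrays and still lay below all Atf3-/- arrays. Without it and without WT oxLDL replicate 3, the difference with oxLDL was 2.26 for C1qa, 1.37 for C1qb and 1.70 for Cd14. Without oxLDL it was 1.34 for C1qa, 0.91 for C1qb and 1.09 for Cd14.

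Cd68, the lysosomal glycoprotein used as a general macrophage marker, stood at 13.15, 12.90 and 13.12 on the Atf3-/- oxLDL arrays, against 12.61, 12.81 and 12.49 on the WT oxLDL arrays. Without oxLDL it stood at 12.97, 13.07 and 13.06 on the Atf3-/- arrays, against 12.83, 12.60 and 12.33 on the WT arrays. All Atf3-/- arrays lay above all WT arrays, while the 2 stimulus states overlapped within each genotype. The genotypes differed by 0.42 with oxLDL (SE 0.13, limma adjusted p = 0.0263) and by 0.45 without it (SE 0.13, limma adjusted p = 0.0315). Both calls depended on single arrays, and both were lost with array weights per genotype, which allow WT and Atf3-/- arrays different spreads (limma adjusted p = 0.0758 without oxLDL and 0.0656 with it). The call without oxLDL was lost without unstimulated WT replicate 2 or 3 or any unstimulated Atf3-/- array (0.32 to 0.48, limma adjusted p = 0.0735 to 0.113), and that with oxLDL without WT oxLDL replicate 1 or 3 or Atf3-/- oxLDL replicate 1 or 3 (0.35 to 0.41, limma adjusted p = 0.0514 to 0.102). Over all 25 alternatives the limma adjusted p for Cd68 ran from 0.00114 to 0.113 without oxLDL and from 7.48e-09 to 0.102 with it. These alternatives include array weights, a fit that called 84.0% of all tested probe sets for genotype with oxLDL.

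Mertk, the efferocytosis receptor, stood at 10.68, 10.70 and 10.80 on the Atf3-/- oxLDL arrays, against 10.24, 10.36 and 9.71 on the WT oxLDL arrays. Without oxLDL it stood at 10.47, 10.47 and 10.64 on the Atf3-/- arrays, against 9.88, 10.29 and 10.10 on the WT arrays. Every Atf3-/- array lay above every WT array, and the WT states overlapped. The difference between genotypes passed with oxLDL, at 0.62 (SE 0.16, limma adjusted p = 0.0116), but not without Atf3-/- oxLDL replicate 3 (0.58, limma adjusted p = 0.0510, with 0.0051 to 0.0510 over the arrays left out in turn). Without oxLDL the difference was 0.43 (SE 0.16, 95% interval 0.09 to 0.78, limma adjusted p = 0.0824). It passed under 6 of 25 alternatives, whose limma adjusted p ran from 0.00566 to 0.239, and leaving out WT oxLDL replicate 3 gave 0.0070.

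Csf1r, the M-CSF receptor, stood at 12.20, 12.12 and 12.21 on the Atf3-/- oxLDL arrays, against 12.25, 12.13 and 11.91 on the WT oxLDL arrays. Without oxLDL it stood at 12.49, 12.50 and 12.52 on the Atf3-/- arrays, against 12.44, 12.47 and 12.17 on the WT arrays. With oxLDL the genotypes overlapped. Without it the Atf3-/- arrays lay above the WT arrays, the lowest at 12.49 and the highest WT array at 12.47. The difference between genotypes was 0.08 with oxLDL (95% interval -0.15 to 0.31, limma adjusted p = 0.615) and 0.15 without it (95% interval -0.09 to 0.38, limma adjusted p = 0.390). Quantile normalization turned the difference with oxLDL to -0.03, so no direction is given for it.

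As a list, 5 of the 6 members were higher in Atf3-/- macrophages with oxLDL at an adjusted p under 0.05 in limma, where 19.9% of all tested probe sets were higher. Without oxLDL 4 of 6 were higher, where 11.4% of all were. The second count was 3 of 6, against 5.22% to 6.98% of all, without unstimulated WT replicate 2 or 3 or any unstimulated Atf3-/- array, and 5 of 6, against 18.3% of all, without WT oxLDL replicate 3. The groups did not overlap, with Atf3-/- above WT, for 5 of 6 members with oxLDL and for 6 of 6 without it, against 26.7% and 23.0% of tested probe sets. The median genotype difference of the 6 members was 1.03 with oxLDL and 0.62 without it, and that of all tested probe sets was -0.001 and -0.02. With quantile normalization the shares of all probe sets called higher and lower were 21.7% and 23.6% with oxLDL, against 19.9% and 8.91% on the deposited scale, and 15.1% and 15.8% without oxLDL, against 11.4% and 5.38%. Without WT oxLDL replicate 3 the shares were 20.2% and 29.7% with oxLDL, and 18.3% and 15.9% without it. The member with the largest genotype difference, C1qa, moved only to 2.28 and 1.17 under quantile normalization.

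Averaged over both stimulus states, 5 of 6 members were higher in Atf3-/- macrophages, where 24.0% of all tested probe sets were. The mean genotype difference was 1.82 for C1qa (SE 0.13, limma adjusted p = 3.40e-06), 1.38 for Cd14, 1.12 for C1qb, 0.53 for Mertk and 0.43 for Cd68. Each of these passed under all 24 alternatives, Cd68 with a limma adjusted p of at most 0.00819 and Mertk of at most 0.00953. For Csf1r the average was 0.11 (95% interval -0.05 to 0.28, limma adjusted p = 0.259) and -0.0067 after quantile normalization. With quantile normalization 25.0% of all probe sets were called higher and 29.9% lower, against 24.0% and 16.8% on the deposited scale, and without WT oxLDL replicate 3 the shares were 25.4% and 34.2%.

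**Figure D2:**
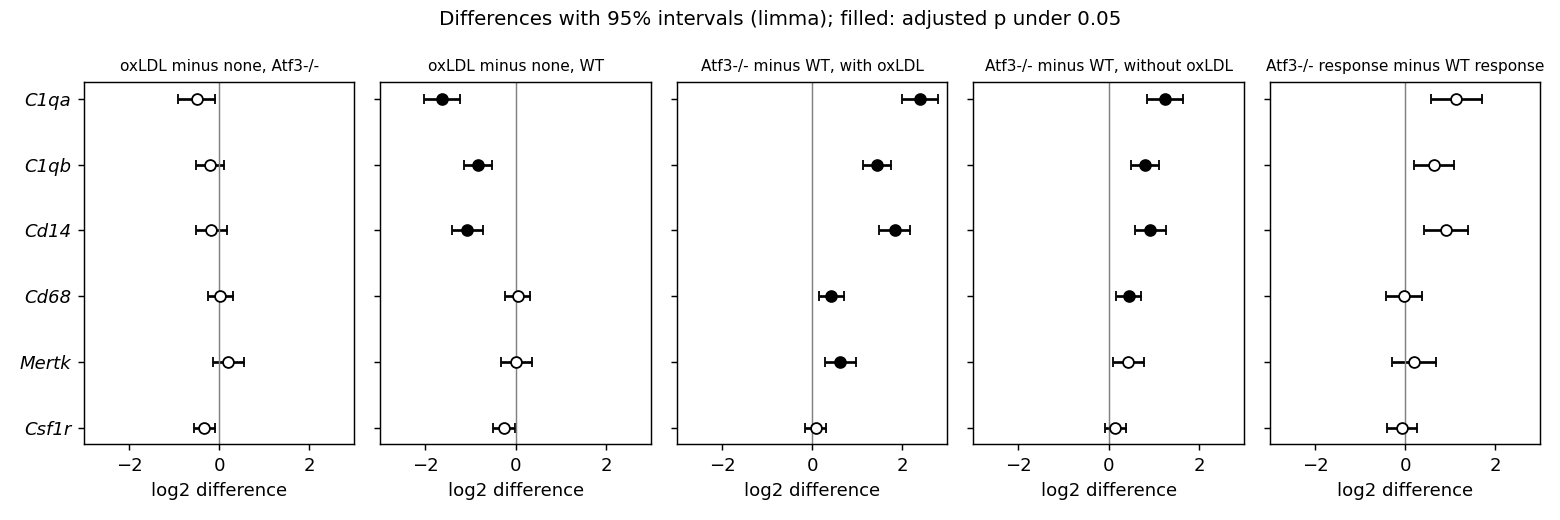
Log2 differences (horizontal axes) of the 6 transcripts in 5 comparisons, with 95% intervals from the limma fit over 12 arrays. Points are filled where the adjusted p was under 0.05: C1qa, C1qb and Cd14 in 3 of the panels, Cd68 in 2, Mertk in 1, and none in the oxLDL response of Atf3-/- macrophages or in the difference of responses.

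In WT macrophages C1qa, Cd14 and C1qb fell with oxLDL. C1qa fell to 10.11 ± 0.46 with oxLDL, against 11.75 ± 0.20 without it (SD, n = 3 each), a 3.10-fold decrease (limma adjusted p = 4.82e-04). Cd14 fell to 9.86 ± 0.29, against 10.93 ± 0.29 (SD, n = 3 each), a 2.11-fold decrease (limma adjusted p = 0.00144). C1qb fell to 11.45 ± 0.22, against 12.29 ± 0.27 (SD, n = 3 each), a 1.79-fold decrease (limma adjusted p = 0.00348). In each of these every oxLDL array lay below every unstimulated array.

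Cd68, Mertk and Csf1r did not pass in this comparison. Their differences were 0.05 for Cd68 (95% interval -0.23 to 0.33), 0.01 for Mertk (95% interval -0.33 to 0.36) and -0.26 for Csf1r (95% interval -0.49 to -0.03, limma adjusted p = 0.196), and all 3 had overlapping groups. The first 2 changed sign when single arrays were left out. So 3 of 6 members were lower, where 5.11% of tested probe sets were lower at this threshold. The same 3 of 6 had oxLDL arrays wholly below the unstimulated arrays, which 9.59% of tested probe sets had. The median difference was -0.55 over the 6 members and -0.015 over all tested probe sets. Csf1r passed as lower under 1 of 25 alternatives, quantile normalization (-0.27, limma adjusted p = 0.0132). Quantile normalization left the falls of C1qa, Cd14 and C1qb at -1.62, -1.002 and -0.85. The shares of all probe sets called higher and lower then became 8.24% and 8.78%, against 2.06% and 5.11%. Without WT oxLDL replicate 3 they became 12.5% and 5.90%, more probe sets higher than lower, while 3 of 6 members were still lower. Leaving out WT oxLDL replicate 2 gave 1.80% and 8.15%, leaving out WT oxLDL replicate 1 gave 1.13% and 4.21%, and leaving out unstimulated WT replicate 3 gave 0.999% and 4.72%.

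Replicates spread more widely in WT than in Atf3-/- cultures, and the 12-array fit uses 1 spread for both. With the 6 WT arrays alone, where 0.699% of tested probe sets passed, C1qa passed (limma adjusted p = 0.0316), while Cd14 (0.0642) and C1qb (0.0867) did not. With array weights per genotype Cd14 passed and C1qb did not (limma adjusted p = 0.0748 for C1qb). Over the 25 alternatives the limma adjusted p ran from 1.04e-06 to 0.0316 for C1qa, from 2.01e-04 to 0.0642 for Cd14 and from 8.71e-05 to 0.0867 for C1qb. Leaving out any 1 of the 12 arrays kept all 3 calls.

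In Atf3-/- macrophages none of the 6 members passed for oxLDL in the limma fit over 12 arrays, where 1.52% of tested probe sets did. That share was 5.34% without WT oxLDL replicate 3 and 0.268% to 0.565% without any 1 of the 6 Atf3-/- arrays. Without adjustment, 2 of 6 had a limma p under 0.05, against 8.87% of all. C1qa averaged 12.50 ± 0.15 with oxLDL and 13.00 ± 0.04 without it (SD, n = 3 each), a difference of -0.50 (95% interval -0.90 to -0.09, limma adjusted p = 0.347). Csf1r averaged 12.18 ± 0.05 and 12.50 ± 0.01 (SD, n = 3 each), a difference of -0.33 (95% interval -0.56 to -0.09, limma adjusted p = 0.241).

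The differences of the other members were -0.20 for C1qb (95% interval -0.51 to 0.11), -0.17 for Cd14 (95% interval -0.51 to 0.17), 0.20 for Mertk (95% interval -0.15 to 0.55) and 0.02 for Cd68 (95% interval -0.25 to 0.30). Although these did not pass, the oxLDL and unstimulated arrays did not overlap for 5 of 6 members: the oxLDL arrays lay below for C1qa, C1qb, Cd14 and Csf1r and above for Mertk. Among all tested probe sets 40.2% had groups that did not overlap in one direction or the other. The direction for Cd68 turned to -0.02 after quantile normalization.

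Fits that did not share the spread with WT gave other calls. With the 6 Atf3-/- arrays alone, 4 of 6 members passed, where 25.0% of all tested probe sets did: C1qa (limma adjusted p = 5.32e-04), Csf1r (7.04e-04), Cd14 (0.0266) and Mertk (0.0272), the last of these higher with oxLDL and the others lower. C1qb had an adjusted p of 0.0628 in that fit. Over the 25 alternatives the adjusted p ran from 1.08e-04 to 0.861 for C1qa, from 2.51e-05 to 0.677 for Csf1r, from 0.0245 to 1.00 for Cd14, from 0.00551 to 1.00 for Mertk and from 0.0292 to 1.00 for C1qb. The within-group SD of the members was between 1.98 times (Cd68) and 6.28 times (Cd14) as high in WT as in Atf3-/- cultures.

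Averaged over both genotypes, 4 of 6 members were lower with oxLDL, where 6.32% of tested probe sets were. The average change was -1.07 for C1qa (SE 0.13, limma adjusted p = 2.92e-04), -0.62 for Cd14 (SE 0.11, limma adjusted p = 0.00307), -0.52 for C1qb (SE 0.10, limma adjusted p = 0.00527) and -0.29 for Csf1r (SE 0.08, limma adjusted p = 0.0278). C1qa, Cd14 and C1qb passed under all 24 alternatives. Csf1r passed under 17 of 24, and 7 of the 12 fits with 1 array left out lost it, namely those without unstimulated WT replicate 2 or any of the 6 Atf3-/- arrays (-0.30 to -0.26, limma adjusted p = 0.0623 to 0.0798, with 7.28e-04 to 0.0798 over all alternatives). The averages for Cd68 and Mertk were 0.04 (95% interval -0.16 to 0.23) and 0.11 (95% interval -0.14 to 0.35). With quantile normalization 9.59% of all probe sets were called higher and 9.80% lower, against 3.64% and 6.32% on the deposited scale, and without WT oxLDL replicate 3 the shares were 14.3% and 7.96%.

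Whether the response to oxLDL differed between the genotypes was tested as the Atf3-/- response minus the WT response. None of the 6 members passed in limma after adjustment over all tested probe sets, of which 1, or 0.00252%, passed. Without adjustment, 3 of 6 had a limma p under 0.05 (C1qa, Cd14 and C1qb), against 2.90% of all. The difference of responses was 1.14 for C1qa (95% interval 0.56 to 1.71, limma adjusted p = 0.503), 0.90 for Cd14 (95% interval 0.42 to 1.39, limma adjusted p = 0.592) and 0.64 for C1qb (95% interval 0.20 to 1.08, limma adjusted p = 1.00). For Mertk, Cd68 and Csf1r it was 0.19 (95% interval -0.30 to 0.68), -0.03 (95% interval -0.42 to 0.36) and -0.07 (95% interval -0.40 to 0.26).

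A smaller decrease of the C1q chains and Cd14 in Atf3-/- macrophages was therefore not shown at the adjusted threshold. The difference for C1qa passed without WT oxLDL replicate 2, the WT oxLDL array with the highest C1qa (1.40, limma adjusted p = 0.0248). With a weight for each array, all 3 passed (limma adjusted p = 4.13e-04 for C1qa, 0.00679 for C1qb and 0.0180 for Cd14), in a fit that called 3.55% of all tested probe sets. Over the 24 alternatives the adjusted p ran from 4.13e-04 to 1.00 for C1qa, from 0.00679 to 1.00 for C1qb and from 0.0180 to 1.00 for Cd14, and the difference stayed above 0 for each.

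The C1q chains were also set against each other on each array, as a description with no test. The log2 value of C1qb minus that of C1qa was 0.42, 0.39 and 0.35 on the Atf3-/- oxLDL arrays, against 1.48, 1.07 and 1.46 on the WT oxLDL arrays. Without oxLDL it was 0.10, 0.12 and 0.04 on the Atf3-/- arrays, against 0.58, 0.61 and 0.44 on the WT arrays. Only its change between groups can be read, since levels of 2 probe sets are not on a common scale. The values did not overlap between the groups of any of the 4 comparisons, and they were lower in Atf3-/- than in WT macrophages in both states. The share of all pairs of probe sets with such a separation was not counted. A change of this value is the change of C1qb minus that of C1qa, so it adds no separate result. C1qb lay between percentiles 96.2 and 99.8 of its array and C1qa between percentiles 79.55 and 99.8, and the part of probe response near the top of the range was not tested.

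**Figure D3:**
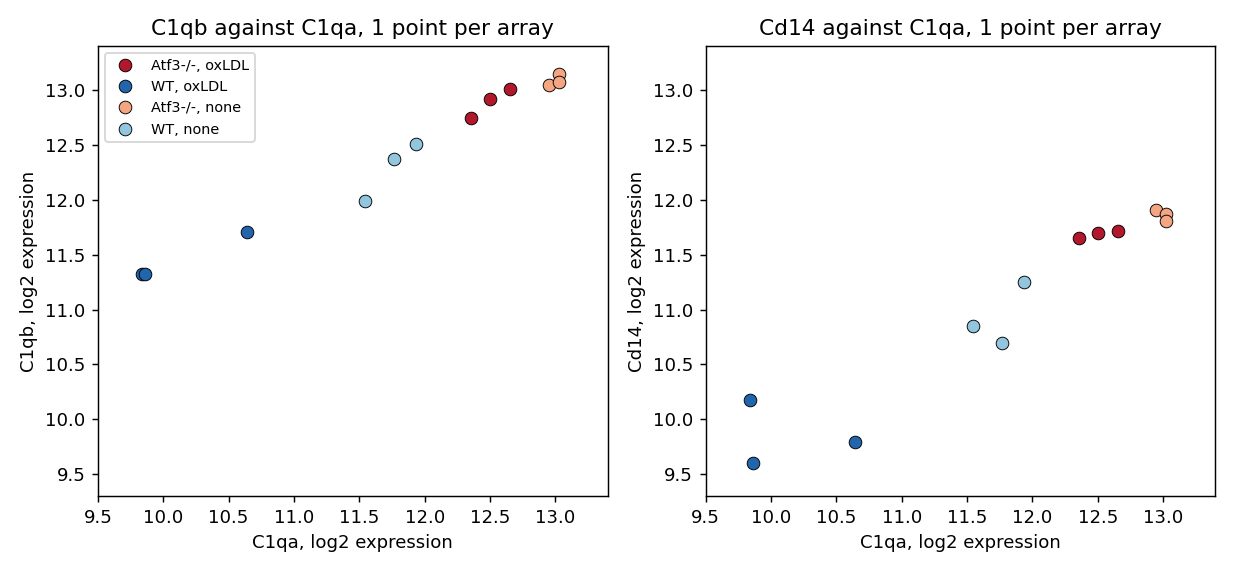
C1qb (left) and Cd14 (right) against C1qa, all in log2 expression, 1 point per array, with 3 points for each of the 4 groups in its own colour. The groups follow each other along a rising band without overlap in any of the 3 transcripts. Within WT oxLDL the array with the highest C1qa and C1qb, at 10.64 and 11.71, is not the one with the highest Cd14, which has 10.17.

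Among C1qa, C1qb and Cd14, the centred values of Cd14 and C1qb lay closest to each other over the arrays. The measure depends on the size of changes as well as on their shape, so it does not rank likeness of shape. C1qa ranged over 3.19 log2 units, against 2.30 for Cd14 and 1.83 for C1qb. After each was centred on its mean over the 12 arrays, Cd14 and C1qb differed by a root mean square of 0.26. The value was 0.41 for Cd14 and C1qa and 0.47 for C1qb and C1qa. The probe set most like C1qb outside the list was ENSMUST00000028948, with a root mean square difference of 0.11 over the 12 arrays, and that most like C1qa was ENSMUST00000133713, with 0.22. The tables used here give neither a gene name. Probe sets of the same gene were therefore not left out, and such probe sets may be among those named or counted here. No probe set followed C1qa, C1qb or Cd14 within 0.15 on every array, whereas 25 followed Csf1r, 46 followed Cd68, of which 1 had identical values, and 1 followed Mertk. A fixed band is met more easily where a transcript varies little, as Csf1r (range 0.61) and Cd68 (range 0.82) did.

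Promoter sequences from the RefSeq promoter table of build GRCm38.p6 are shown for 3 members, Cd68, Mertk and C1qb. C1qa had no entry in it, and the windows of Cd14 and Csf1r are not reported here. The 3 were not picked by their expression, and all of them were higher in Atf3-/- macrophages with oxLDL. Atf3 belongs to a family that binds the CRE. Each runs 5′ to 3′ on the strand of the gene, from 250 bases before its start to 50 after it. Capitals mark matches, on either strand, to the CRE core TGACGT, the AP-1 motif TGANTCA and GAGGAA, the core bound by PU.1, a factor of the myeloid lineage. The full ATF/CRE palindrome TGACGTCA, which contains the CRE core, was also searched.
C1qb, chr4:136886151-136886450, minus strand: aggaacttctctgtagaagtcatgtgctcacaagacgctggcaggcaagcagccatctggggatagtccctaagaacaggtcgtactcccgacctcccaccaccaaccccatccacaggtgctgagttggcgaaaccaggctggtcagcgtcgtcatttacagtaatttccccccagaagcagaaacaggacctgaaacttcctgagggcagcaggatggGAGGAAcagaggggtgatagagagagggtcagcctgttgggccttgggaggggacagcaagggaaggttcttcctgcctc
Cd68, chr11:69666121-69666420, minus strand: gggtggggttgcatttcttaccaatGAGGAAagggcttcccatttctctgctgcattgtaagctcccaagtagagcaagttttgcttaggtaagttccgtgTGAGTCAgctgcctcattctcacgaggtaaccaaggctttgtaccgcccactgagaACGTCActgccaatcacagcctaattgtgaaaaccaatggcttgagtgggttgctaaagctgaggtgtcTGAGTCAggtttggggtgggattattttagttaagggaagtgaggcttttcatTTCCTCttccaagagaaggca
Mertk, chr2:128698665-128698964, plus strand: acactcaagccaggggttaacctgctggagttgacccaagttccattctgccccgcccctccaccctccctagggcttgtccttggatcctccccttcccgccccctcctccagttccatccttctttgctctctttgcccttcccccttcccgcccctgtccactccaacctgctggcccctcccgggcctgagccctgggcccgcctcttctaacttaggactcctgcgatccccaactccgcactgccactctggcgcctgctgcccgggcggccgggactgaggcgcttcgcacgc

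Among all 32851 promoters of this length in the table, 7.51% held the CRE core, 7.81% the AP-1 motif, 28.3% the PU.1 core and 1.79% the palindrome. The Cd68 window held 1 CRE core, 2 AP-1 motifs and 2 PU.1 cores. The C1qb window held 1 PU.1 core and no match to the other motifs, and the Mertk window held no match to any of the 4. Whether these matches relate to the genotype differences was not tested. None of the 3 windows held the palindrome. These are matches of letters in short windows, and no binding was measured.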

How the data were processed

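Cultured macrophages of 12 mice were measured on 12 Affymetrix Mouse Exon 1.0 ST arrays. The deposited values are log2 expression levels of transcript-level probe sets, as the authors made them, per the labels' design text. PLIER and Affymetrix Power Tools are named, without versions, in the submitters' processing notes. How background was corrected, arrays were normalized and transcripts annotated is not given in these sources.

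Arrays were put into 4 groups of 3 by genotype and stimulus in the labels. The test was limma 3.58.1 in R 4.3.3 on the deposited log2 values, with 1 mean per group, a moderated variance with intensity trend (eBayes) and 12 arrays in 1 fit. Benjamini-Hochberg adjustment covered all 39620 probe sets that exceeded the array median on 3 or more arrays. A transcript passed at an adjusted p under 0.05. There were 7 contrasts, and the test was checked on simulated data. No result of that check is given for replicates that spread more widely in WT than in Atf3-/- cultures, as these did. It therefore does not show how reliable the calls are under this unequal spread. A fold change is the log2 difference unlogged, with no pseudocount. All 6 members were named in each comparison, plus, for C1qa and C1qb, the probe set with the smallest root mean square difference from each. The members and lists were chosen with earlier results of these data known. Alternatives, given in the closing section, covered filter, scaling, variance model, replicate block, the groups fitted and single arrays left out. Lists of further macrophage, complement and other cell type genes were not analysed here, because 0 entries of the gene table used hold an Ensembl ID. The number of arrays limits the precision. The labels describe separate mice but do not say whether cultures or processing days were shared, so p-values reflect the spread among these cultures, which may in part be technical.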

Additional observations from a re-analysis of the deposited data

How the results depend on the processing

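Each of 42 member results was computed again under 24 or 25 alternatives, 1032 values in all. Of these, 958 kept direction and side of the threshold, 22 lost the call, 29 gained one and 23 changed sign. Members and contrasts share each fit, and the fits share arrays, so these values are not independent. The replicate block, no filter, the filter at the 25th percentile, 16 added to the unlogged values, eBayes without trend or with a robust prior, and 1 probe set per identical profile changed 0 of 42. Deviations of same-numbered arrays from their group means correlated between -0.31 and 0.51, over 0.1 in 4 of 18 pairs. For differently numbered arrays the range was -0.49 to 0.34, over 0.1 in 12 of 36 pairs. Deviations from a mean of 3 arrays constrain each other, so these values do not decide whether the numbers pair the arrays. Shares in brackets are of all tested probe sets called in the same fit. With oxLDL in Atf3-/- macrophages 0 members passed (1.52%). Quantile normalization gave 1 (4.65%) and centring on array medians 1 (3.03%), which was Csf1r each time. Leaving out both unstimulated WT replicate 1 and WT oxLDL replicate 3 gave 1 (9.04%). Array weights gave 4 (36.0%), weights per genotype 5 (26.0%) and the 2 groups alone 4 (25.0%). With 1 array left out 0 to 1 passed (0.268% to 5.34%). With oxLDL in WT 3 passed (7.18%), but 1 did with the 2 groups alone (0.699%), 2 with weights per genotype (1.90%) and 4 with quantile normalization (17.0%). For genotype without oxLDL 4 passed (16.8%), but 3 did with weights per genotype (15.5%). Quantile normalization (30.9%), centring on array medians (24.9%), array weights (32.6%), the 2 groups alone (24.9%) or leaving out both of those WT arrays (47.3%) each gave 5. With 1 array left out 3 to 5 passed (7.06% to 34.2%). For genotype with oxLDL 5 passed (28.8%), but 4 did with weights per genotype (27.3%). With 1 array left out 3 to 5 passed (18.3% to 49.9%), the lowest count without Atf3-/- oxLDL replicate 3 (18.6%). For the difference of responses 1 array left out gave 0 to 1 (0.00252% to 0.0429%), while array weights gave 3 (3.55%). The causes were not tested.

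Sign changes came in values near 0 that had not passed. Quantile normalization turned Cd68 with oxLDL in Atf3-/- to -0.016, and Csf1r to -0.031 for genotype with oxLDL and -0.0067 for average genotype. Array weights turned Csf1r for genotype with oxLDL to -0.058 and the Cd68 difference of responses to 0.017, and leaving out both of those WT arrays turned Csf1r for genotype with oxLDL to -0.016. With 1 array left out, Cd68 ran from -0.023 to 0.10 with oxLDL in Atf3-/-, from -0.077 to 0.17 with oxLDL in WT, from -0.15 to 0.10 for the difference of responses and from -0.027 to 0.097 for average oxLDL. Mertk ran from -0.12 to 0.21 with oxLDL in WT and from -0.0080 to 0.32 for the difference of responses. Csf1r ran from -0.016 to 0.16 for genotype with oxLDL and from -0.16 to 0.027 for the difference of responses. The fit with only the compared groups cannot be made for averages and the difference of responses. The count of arrays limits every value.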
